A study of Sus scrofa with 8 samples.

Results

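Polyamines (putrescine, spermidine and spermine) are small cations that bind RNA and DNA and that growing cells need. Ornithine decarboxylase, made from ODC1, starts their synthesis by turning ornithine into putrescine. Antizyme, made from OAZ1, binds the decarboxylase and delivers it to the proteasome, and its own message is read in full only when polyamines make the ribosome shift its reading frame. SAT1 acetylates spermidine and spermine so that they can be broken down or exported, and AMD1 supplies the aminopropyl groups for both.

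These genes of polyamine control were followed in the livers of 8 pigs, 4 Korean native pigs (KNP, an indigenous breed, 7 months old) and 4 Yorkshire pigs (YS, a commercial breed, 6 months old). Each animal gave 1 Affymetrix porcine array of total RNA, taken at the end of its largest lobe, and the labels say that the husbandry was shared. Each difference between KNP and YS is one of breed and age together, which cannot be told apart here. The labels give neither the sex of the animals nor the hybridization dates, and whether these differed between KNP and YS was not tested. The array annotation listed 5 probe sets under exactly 1 of the 4 symbols, out of 23999 without controls: 2 for OAZ1, 2 for ODC1 and 1 for SAT1. These are 3 of 6765 genes with a probe set of their own. No probe set was listed under AMD1 alone, and AMD1 was not analysed here. The genes were picked from earlier results on these arrays, for the KNP minus YS difference of OAZ1, so their breed differences are given as descriptions without a p-value, and their place among the calls is read as no evidence. All 5 probe sets lay above the filter on low values, which left out the lower 40% by mean.

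With the values as deposited, liver OAZ1 gave less signal in KNP than in YS with both of its probe sets. ODC1 spread widely among the KNP animals with no separation of the breeds, and SAT1 overlapped between them. After quantile normalization both OAZ1 probe sets overlapped between the breeds as well. The probe set of the highest signal, called the brighter OAZ1 probe set here, had an intensity of 37177, 33826, 38000 and 48252 in KNP replicates 1 to 4, against 72901, 67967, 57174 and 79253 in YS replicates 1 to 4. Intensity is a linear signal that the authors scaled on each array. All 4 KNP values lay below all 4 YS values, with a gap between KNP replicate 4 and YS replicate 3. The mean was 39314 ± 6226 in KNP and 69324 ± 9324 in YS (SD, n = 4 per breed). On the log2 scale, with 16 added to each intensity, the difference of KNP minus YS was −0.82 (SE 0.14), or 0.566 of the YS level.

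The dimmer OAZ1 probe set had 13153, 12010, 11995 and 10344 in KNP, against 14289, 15180, 15062 and 14667 in YS. Here too the breeds did not overlap, but the difference was −0.32 (SE 0.12). Within the breeds the OAZ1 probe sets ran against each other (Pearson r of log2 values −0.80 in KNP and −0.60 in YS, n = 4 per breed). KNP replicate 4 was the highest KNP animal with the brighter probe set and the lowest with the dimmer one.

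**Figure D1:**
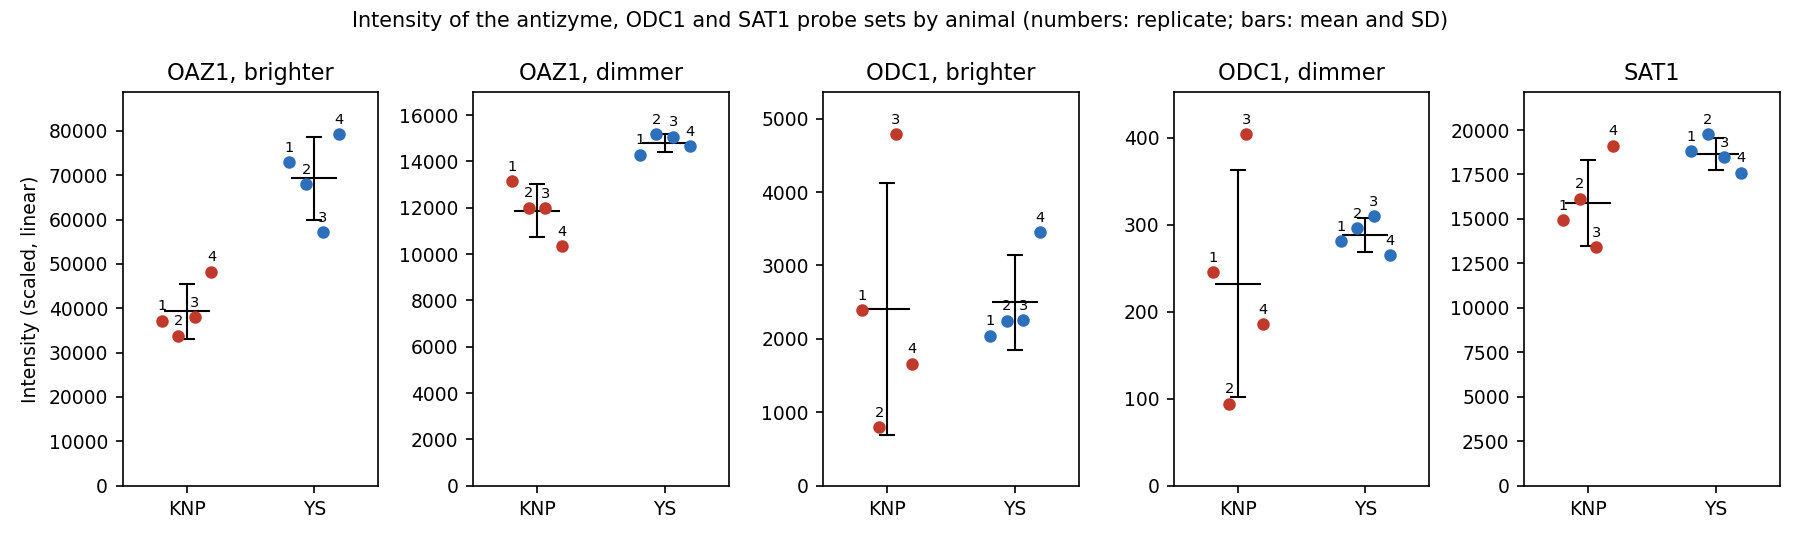
Intensity (linear, scaled by the authors) of each OAZ1, ODC1 and SAT1 probe set in 4 KNP animals (left in each panel) and 4 YS animals (right), with the mean and SD as bars and replicate numbers beside the points. Both OAZ1 panels show all KNP animals below all YS animals, and both ODC1 panels show KNP replicate 2 lowest and KNP replicate 3 highest of the 8.

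The background of these differences was fitted over 14399 probe sets with limma. In all, 149 of them (1.03%) passed an adjusted p of 0.05 (were called), 88 (0.611%) lower and 61 (0.424%) higher in KNP. Of the 5 probe sets followed here, 1, the brighter OAZ1 probe set, was among those lower in KNP, and after quantile normalization, where 13 of all probe sets (0.0903%) passed, 0 of the 5 did. KNP values lay all below YS values in 816 probe sets (5.67%), which include both OAZ1 probe sets, and all above in 578 (4.01%). As OAZ1 was picked for this contrast, these counts only place it. Single animals bore on them: without KNP replicates 1 to 4 in turn 50, 109, 73 and 117 of all probe sets passed, and without YS replicates 1 to 4 it was 13, 24, 8 and 15. The difference of the brighter OAZ1 probe set lay between −0.92 and −0.75 with 1 animal left out. That probe set passed in only 2 of these 8 fits.

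OAZ1 gave one of the brightest signals on these arrays, and the signals of like brightness were lower in KNP as a class. Ranked by intensity from the top among the 23999 probe sets, the brighter OAZ1 probe set stood at 19, 39, 37 and 11 in KNP, against 4, 11, 32 and 3 in YS. These ranks overlapped between the breeds, unlike the intensities. Among the 55 other probe sets within 0.5 log2 units of its mean brightness, the median difference of KNP minus YS was −0.60, 5 had a lower difference than OAZ1, 35 (63.6%) were called lower, and 51 (92.7%) had all KNP values below all YS values. Around the dimmer OAZ1 probe set, 187 others had a median difference of −0.25, 71 of them had a lower one than it did, and in 47 (25.1%) all KNP values lay below all YS values.

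Rescaling the arrays moved the brighter OAZ1 probe set more than any other probe set followed here. The difference of the brighter probe set was −0.74 (SE 0.14) after median centring, −0.39 (SE 0.13) after cyclic loess and −0.22 (SE 0.13) after quantile normalization, which gives every array the same distribution. That of the dimmer one was −0.25, −0.09 and −0.08 (SE 0.14, 0.12 and 0.12). Both kept a negative sign under each of these scalings. After quantile normalization the brighter probe set had log2 levels of 15.65, 15.41, 15.43 and 15.76 in KNP, against 15.91, 15.76, 15.48 and 15.98 in YS. The dimmer one had 13.76, 13.66, 13.75 and 13.40 in KNP, against 13.69, 13.78, 13.72 and 13.72 in YS. With both probe sets the breeds then overlapped.

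**Figure D2:**
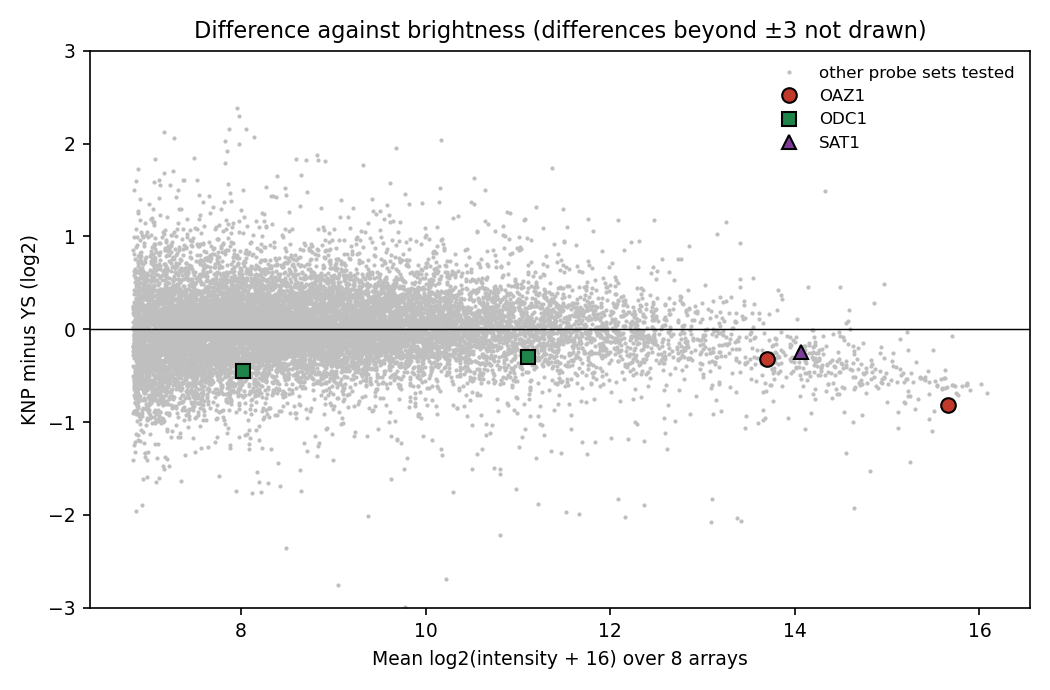
Difference of KNP minus YS (log2) against the mean log2(intensity + 16) over the 8 arrays, 1 grey point for each probe set tested and coloured symbols for OAZ1, ODC1 and SAT1. The cloud bends below 0 at the bright end, where the brighter OAZ1 probe set lies at −0.82 beside neighbours with a median of −0.60.

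Some control signals of the arrays moved with the breeds as well. Actin control signal from the 3′ end over that from the 5′ end, a ratio that grows when RNA is degraded, lay between 2.68 and 6.45 in KNP and between 8.39 and 11.8 in YS (two-sided exact permutation p = 0.0286, the smallest that 4 against 4 allows). The same ratio of GAPDH overlapped, from 2.30 to 3.77 in KNP and from 3.07 to 4.05 in YS (exact permutation p = 0.314). The geometric mean of the spiked bacterial and phage controls averaged 4149 ± 651 on KNP arrays and 7267 ± 1045 on YS arrays (SD, n = 4 per breed, exact permutation p = 0.0286). Defining liver markers were bright: of 10 hepatocyte markers 9 had a probe set, and their summed intensity ran from 263545 to 316156 in KNP and from 420492 to 440679 in YS, with 5 called lower, 1 (HPD) higher and 3 not passed. ALB, the plasma albumin of hepatocytes, averaged 54702 ± 3867 in KNP and 88262 ± 5690 in YS. Most of these markers were among the bright signals that were lower in KNP as a class. Brightness and hepatocyte content cannot be told apart in this sum. The summed markers of the 8 other cell types examined (macrophage, endothelial, stellate, cholangiocyte, T and NK, B cell, neutrophil, erythroid) overlapped between the breeds. Within the endothelial list 1 marker was called higher, RAMP2, a partner of the adrenomedullin receptor, at 1072 ± 125 in KNP and 447 ± 76.7 in YS (log2 1.24, adjusted p = 0.0190). For the erythroid list, of which ALAS2 and HBB had a probe set out of 5 genes, the sum ran from 1400 to 3175 in KNP and from 1709 to 4373 in YS. With the actin ratio as a covariate the difference of the brighter OAZ1 probe set was −0.43, against −0.82 without it, and that of the dimmer one −0.51, against −0.32. KNP and YS arrays share no value of this ratio, so that fit cannot tell it apart from breed. The part of the spiked controls and of the cell markers in the OAZ1 difference was not tested. In whole tissue, fewer cells of a type and less RNA per cell cannot be told apart.

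**Figure D3:**
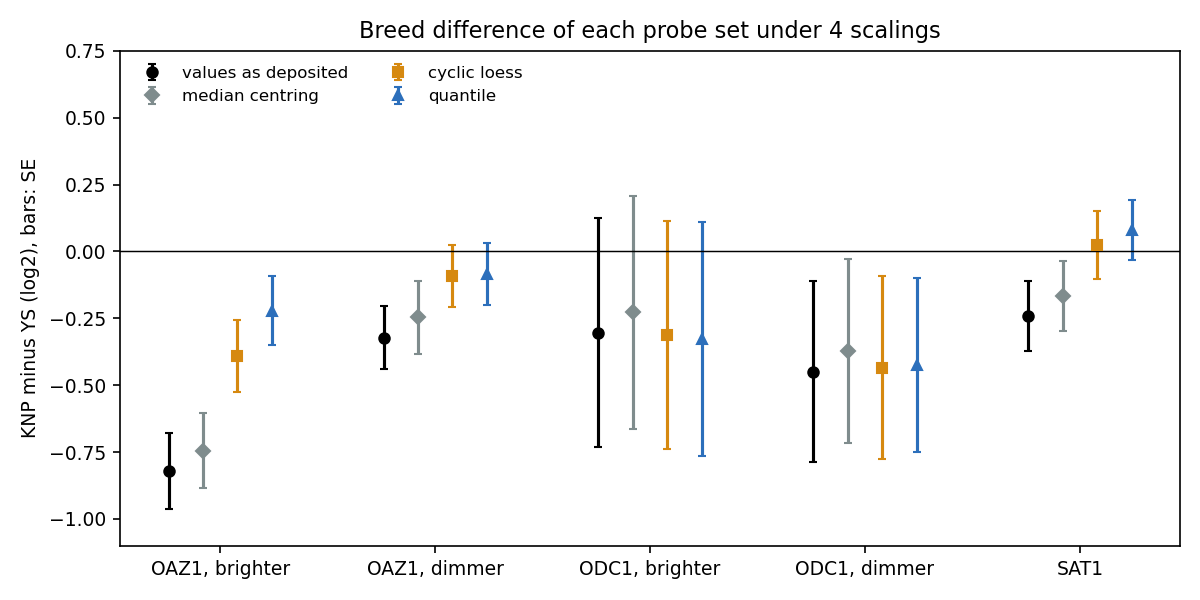
Difference of KNP minus YS (log2, bars give the SE) of each probe set with the values as deposited, after median centring, after cyclic loess and after quantile normalization. The brighter OAZ1 probe set moves from −0.82 to −0.22, the ODC1 probe sets keep their place, and SAT1 crosses 0.

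ODC1, the target of antizyme, did not separate the breeds. Its brighter probe set had 2388, 799, 4789 and 1663 in KNP, against 2041, 2249, 2252 and 3455 in YS. KNP replicate 2 was the lowest and KNP replicate 3 the highest of all 8 animals, so that the YS range lay inside the KNP range. The highest KNP value was 5.99 times the lowest, against 1.69 times in YS. The means were 2410 ± 1714 in KNP and 2499 ± 645 in YS (SD, n = 4 per breed), with a log2 difference of −0.30 (SE 0.43).

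The dimmer ODC1 probe set had 246, 94.1, 404 and 186 in KNP, against 281, 296, 310 and 265 in YS. It put the KNP animals in the same order as the brighter one, replicate 3 highest, then 1, 4 and 2. Among YS animals it did not: replicate 4 was highest with the brighter and lowest with the dimmer probe set. Its highest KNP value was 4.29 times the lowest, against 1.17 times in YS, and the log2 difference was −0.45 (SE 0.34). Single KNP animals moved the difference of ODC1. Without KNP replicate 2 it was 0.13 with the brighter probe set, a turn of sign, and −0.11 with the dimmer one, and without KNP replicate 3 it was −0.73 and −0.76. The actin 3′ over 5′ ratio of the arrays was also lowest in KNP replicate 2 (2.68) and highest in KNP replicate 3 (6.45) among KNP animals, with 3.8 in replicate 1 and 6.37 in replicate 4. With this ratio as a covariate the ODC1 differences turned to 1.33 and 0.54, in a fit where the ratio and breed cannot be told apart. The breed difference of ODC1 was therefore smaller than the spread among KNP animals.

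**Figure D4:**
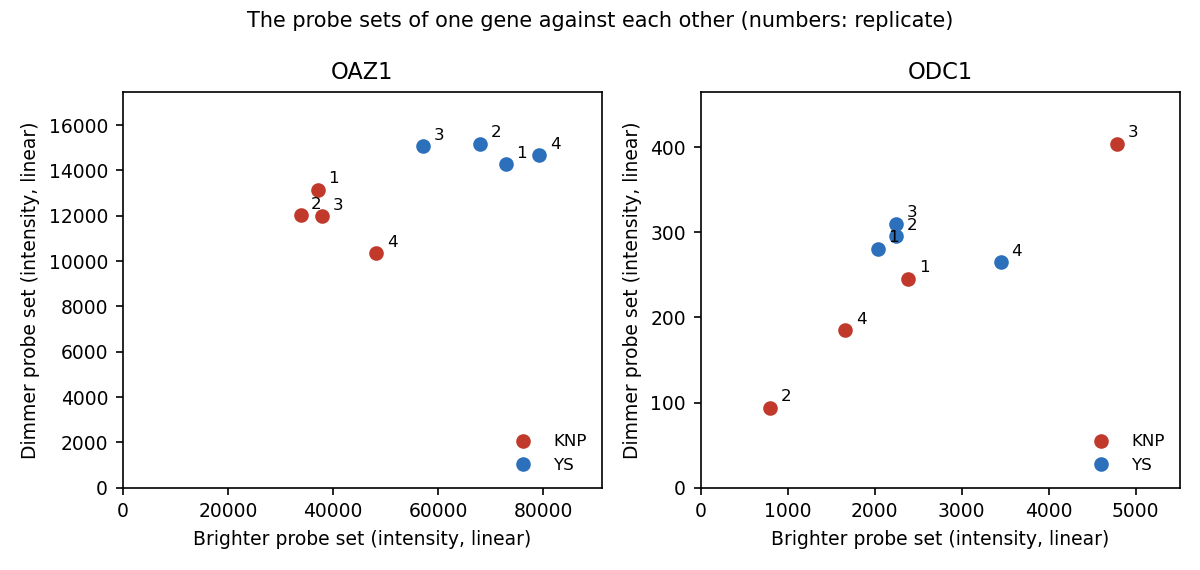
Intensity of the dimmer against the brighter probe set of OAZ1 (left) and ODC1 (right), 1 point per animal with its replicate number. For ODC1 the 4 KNP animals line up from replicate 2 to replicate 3, and for OAZ1 KNP replicate 4 is highest of the KNP animals on one axis and lowest on the other.

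SAT1, the acetyltransferase that starts polyamine breakdown, gave a bright signal in both breeds. Its intensity was 14938, 16127, 13400 and 19113 in KNP, against 18812, 19765, 18466 and 17598 in YS. KNP replicates 1, 2 and 3 lay below all YS animals, and KNP replicate 4 lay above 3 of them. The mean was 15895 ± 2419 in KNP and 18660 ± 896 in YS (SD, n = 4 per breed), with a log2 difference of −0.24 (SE 0.13). This sign turned under rescaling, to 0.081 (SE 0.11) after quantile normalization and 0.023 (SE 0.13) after cyclic loess. Among 186 other probe sets of like brightness the median difference was −0.34, and 128 had a lower one than SAT1.

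The animals were ordered differently by each gene. KNP replicate 4 had the highest KNP level of SAT1 and of the brighter OAZ1 probe set but the third of ODC1, and KNP replicate 3, highest in ODC1, was lowest in SAT1. To find the genes whose animal-to-animal pattern was most like each member, breed means were subtracted and Pearson correlations over the 8 arrays were ranked among the 7189 tested probe sets with 1 symbol. With so many candidates and 8 arrays, high values arise readily, and the names are descriptions. For the brighter ODC1 probe set the first was SRPRA, a subunit of the signal recognition particle receptor (r = 0.990). RNF10, a RING finger protein (0.983), and PGM3, an enzyme of hexosamine synthesis (0.981), followed. The dimmer ODC1 probe set, which ordered the YS animals differently, was not ranked in this way. SRPRA had 5056, 2610, 7462 and 4367 in KNP, against 4523, 4765, 4938 and 5652 in YS, again with KNP replicate 2 lowest and KNP replicate 3 highest. For the brighter OAZ1 probe set they were PRPF3, a splicing factor (r = 0.978), ELMO2, a regulator of cell movement and engulfment (0.959), and TGIF1, a homeobox repressor (0.958). For SAT1 they were CDC5L, a splicing factor (r = 0.996), LOC396566 (0.977) and SCAF8, an RNA polymerase binding protein (0.977).

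Of 37 listed genes 25 had a probe set and 23 were tested with limma: 0 rose, 0 fell and 23 did not pass, beside a share of 1.03% called over all probe sets, so that a count of 0 in a list of this size says nothing particular about it. An unadjusted p under 0.05 was found for 5 of them, against 15.1% of all probe sets tested. Their median difference was −0.10, against −0.01 over all probe sets tested. KNP values were all above YS values in 1 gene and all below in 2, against 9.68% of all probe sets with no overlap in either direction. In 21 of the 23 genes the sign was kept under each of the 3 rescalings, and the exceptions were ARG1 and MAT1A. With the actin ratio as a covariate the sign turned in SMS, SRM, SAT2, APIP, MAT2A, MRI1, SLC3A2, MYC and NQO1. It also turned in EIF5A by its brighter probe set. In that fit the ratio and breed cannot be told apart. Some fits with 1 animal left out turned the sign of SRM, APIP, MRI1, ATP13A2, SLC3A2, SLC7A1, MYC and NQO1.

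Among the relatives and inhibitors of antizyme, OAZ2, a second antizyme, had 265, 267, 219 and 199 in KNP, against 277, 300, 330 and 370 in YS. These did not overlap, but the difference of −0.41 (SE 0.18) did not pass (limma, adjusted p = 0.322), and the other OAZ2 probe set showed 0.14. AZIN1, a decoy of ODC1 that binds antizyme and has no decarboxylase activity, averaged 1017 ± 218 in KNP and 855 ± 170 in YS, with a difference of 0.24 (SE 0.20, adjusted p = 0.590). The second AZIN1 probe set showed 0.34.

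Of the synthases that lengthen putrescine, SMS, which makes spermine, showed 0.49 (SE 0.25, adjusted p = 0.384), with 996, 1645, 732 and 698 in KNP, against 629, 766, 704 and 613 in YS. SRM, which makes spermidine, showed −0.15 (SE 0.34, adjusted p = 0.872). On the breakdown side SAT2, a relative of SAT1, showed 0.35 (SE 0.23, adjusted p = 0.508), and SMOX, which oxidizes spermine, showed −0.48 (SE 0.32, adjusted p = 0.516).

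The genes of ornithine supply included the largest difference of the 23, that of OAT. OAT, which turns ornithine toward glutamate and so competes with ODC1 for it, had 6938, 1027, 2131 and 3391 in KNP, against 1680, 842, 1190 and 455 in YS. The KNP animals were mostly higher, but KNP replicate 2 lay within the YS range, and the difference of 1.5 (SE 0.53) did not pass (adjusted p = 0.216). AGMAT, named for the splitting of agmatine into putrescine and urea, had 8153, 8722, 4640 and 7302 in KNP, against 9650, 10272, 13195 and 10671 in YS. These did not overlap, with a difference of −0.63 (SE 0.20, adjusted p = 0.166). ARG1, the liver arginase that releases ornithine, showed −0.23 (SE 0.20, adjusted p = 0.629; 0.076 after quantile normalization), and ARG2, the mitochondrial arginase, 0.34 (SE 0.36, adjusted p = 0.702).

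In methionine supply and salvage, ENOPH1, an enzyme of the route that recycles the methylthioadenosine that spermidine and spermine synthesis leave behind, had 903, 765, 1241 and 900 in KNP, against 558, 611, 567 and 467 in YS. All KNP animals lay above all YS animals, and the difference of 0.76 (SE 0.18) had an adjusted p of 0.0837. MAT1A and MAT2A, the catalytic subunits that make S-adenosylmethionine, showed −0.22 (0.040 after quantile normalization) and −0.36, and MAT2B, the regulatory subunit, 0.42 (SE 0.16, adjusted p = 0.244). APIP, of the same salvage route as ENOPH1, showed 0.036 (SE 0.15, adjusted p = 0.937).

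EIF5A, the translation factor that carries hypusine, an amino acid made from spermidine, gave different readings with its probe sets. The brighter one averaged 4307 ± 610 in KNP and 4624 ± 687 in YS, a difference of −0.10 (SE 0.16, adjusted p = 0.810). The dimmer one had 742, 846, 678 and 628 in KNP, against 292, 389, 322 and 167 in YS, and rose by 1.31 (SE 0.24, limma, adjusted p = 0.0362). This call ended when any 1 of the 8 animals was left out (adjusted p between 0.0513 and 0.110, differences between 1.08 and 1.46) and after quantile normalization (1.3, adjusted p = 0.0764). With the actin ratio as a covariate the difference of the dimmer probe set was 0.41 (limma, adjusted p = 0.791). In that fit the ratio and breed cannot be told apart. DHPS, which starts the making of hypusine, showed −0.23 (SE 0.16, adjusted p = 0.539).

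The tested genes of transport and regulation had differences between −0.25 and 0.16, with an SE of up to 0.44. SLC3A2, a carrier subunit linked to polyamine export, showed −0.09, ATP13A2, a lysosomal polyamine exporter, −0.13, and SLC7A1, which imports arginine and ornithine, 0.16, with adjusted p between 0.837 and 0.880. MYC, a known activator of ODC1 transcription, averaged 379 ± 174 in KNP and 336 ± 91.0 in YS, a difference of 0.10 (SE 0.31, adjusted p = 0.915). NQO1, an enzyme that can shield ODC1 from degradation, had 2553, 432, 934 and 1709 in KNP, against 1694, 1292, 1051 and 1574 in YS, a difference of −0.25 (SE 0.44), which did not pass.

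**Figure D5:**
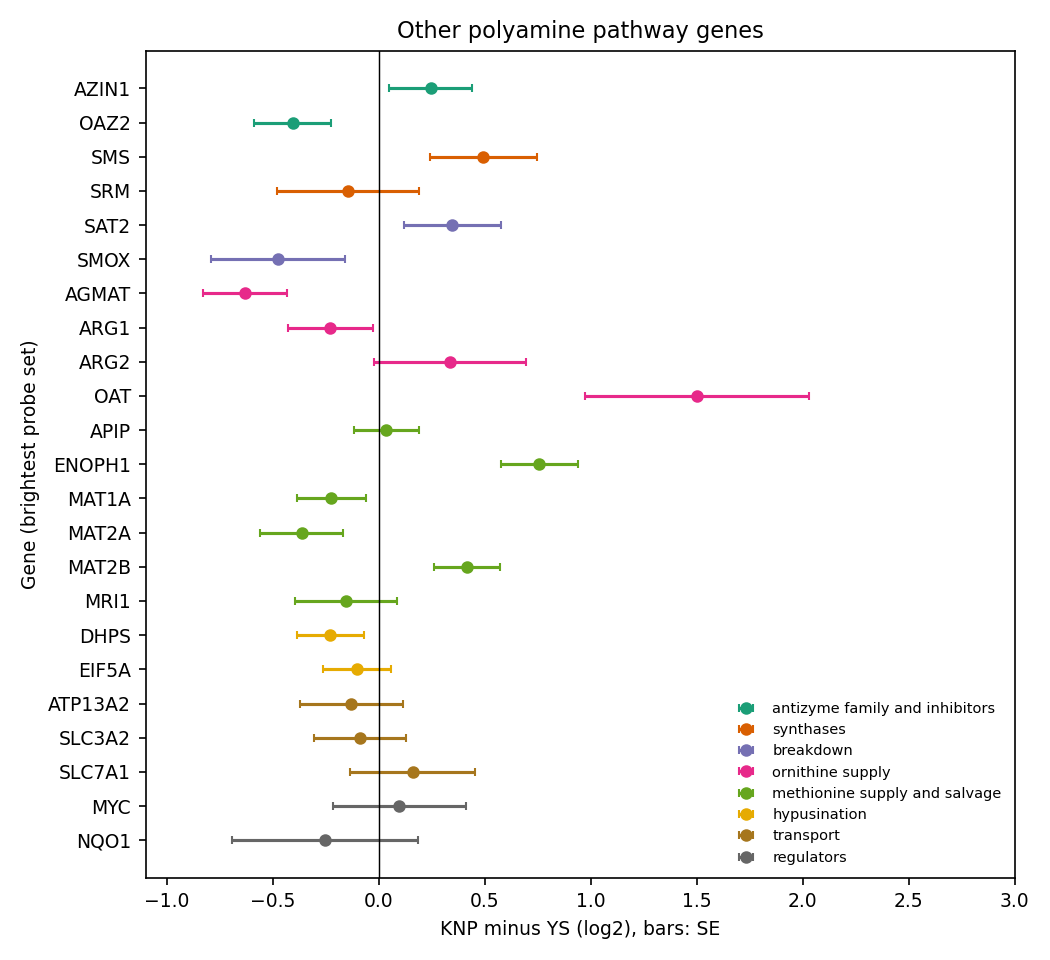
Difference of KNP minus YS (log2) of 23 polyamine pathway genes by their brightest probe set, with the SE as bars and colours for the roles. OAT lies highest at 1.5 and AGMAT lowest at −0.63, and none of the 23 passed an adjusted p of 0.05.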

How the data were processed

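Liver RNA of 4 KNP and 4 YS pigs was measured, 1 array per animal. Per the submitters' processing notes GCOS 1.3 was used; how signal and background were computed is not given in the sources used here. Detection calls were not used. The deposited values are a linear intensity per probe set, scaled by the authors: the mean between percentiles 2 and 98 was 499.8 on each array. Array medians ran from 153 to 180. Arrays have no read depth; their number sets the precision. Of 24123 probe sets 124 controls were left out. Intensities were taken as log2(value + 16); array medians differed by 0.22, under the limit of 0.5 set for quantile normalization. The lower 40% by mean were left out, and 14399 probe sets were tested with limma 3.58.1 (R 4.3.3, lmFit, eBayes with an intensity trend, breed as the only term, two-sided, Benjamini-Hochberg). The fit was tested on simulated data. Members and gene lists were chosen with earlier results of these data known. Named are all member probe sets, pathway genes past the threshold, up to 3 further genes per role by brightness, other tested probe sets of opposite sign, and the 3 genes most like each member. ENOPH1, MAT2A and ARG2 fall outside this rule and were named after their values were seen. A dim probe set of ARG2 (−0.46) and 1 of ATP13A2 (0.086) had the opposite sign but lay below the filter. Alternatives were a pseudocount of 1 or 64, quantile, median or cyclic loess scaling, no filter or the lower 60% left out, no trend, array weights, a replicate block, the actin ratio as a covariate, each animal left out, a threshold of 0.01 and the mean of a gene's probe sets. The replicate numbers name different animals; same-numbered animals correlated between −0.02 and 0.05 in their deviations, so they were not paired.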

Additional observations from a re-analysis of the deposited data

How the results depend on the processing

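The brighter OAZ1 probe set kept a negative difference under all 20 alternatives. It was −0.22 with quantile normalization, −0.39 with cyclic loess, −0.43 with the actin ratio as a covariate and −0.57 as the mean of both probe sets; leaving out 1 animal gave −0.92 to −0.75. ODC1 turned with the actin covariate, to 1.33 (brighter) and 0.54 (dimmer), and the brighter ranged from −0.73 to 0.13 with 1 animal left out, positive only without KNP replicate 2. SAT1 turned to 0.081 with quantile normalization and 0.023 with cyclic loess, and ranged from −0.33 to −0.16 with 1 animal left out. KNP and YS arrays share no value of the actin ratio, so it and breed cannot be told apart in that fit. The 149 calls over all probe sets became 13 with quantile normalization, 95 with median centring, 14 with cyclic loess, 35 without a filter, 13 without the intensity trend, 8 with the replicate block, 1 with the actin covariate and 5 at a threshold of 0.01; leaving out 1 animal gave 8 to 117. The count of 0 pathway genes by brightest probe set was the same under each alternative run, also when all probe sets of each gene were averaged. The causes were not tested.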

Other observations

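KNP replicate 2, the KNP animal with the lowest ODC1, was also the lowest KNP animal in OAT (1027 against 2131 to 6938), ARG1 (12039 against 16716 to 19304), ARG2 (435 against 1245 to 1719) and NQO1 (432 against 934 to 2553), and the highest in SMS (1645 against 698 to 996). These genes were named after their values were seen. Over the 23 tested pathway genes it was the lowest KNP animal in 7 and the highest in 6, while KNP replicate 3 was the lowest in 9 and the highest in 5, so no single KNP animal was low throughout. Among YS animals, replicate 2 was highest in 9 of the 23 genes and the others in 3 to 6.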
